A study of Homo sapiens with 14 samples.

Results

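Inflammatory signalling and its feedback were followed through 10 genes, found by their symbols in both deposited tables: the cytokine IL1B, the chemokines CXCL8, CXCL2 and CCL3, the cytokine TNF, the interleukin-1 receptor antagonist IL1RN, the inhibitors TNFAIP3 and NFKBIA, the transcription factor subunit NFKB1 and the adhesion molecule ICAM1. All 10 were listed among the 19196 genes of the SIGM5 table and the 26171 entries of the K562 table. Polyadenylated RNA had been sequenced in 14 libraries, 2 in each of 7 groups. SIGM5, an acute myeloid leukaemia line, had received 12.5 µM TETi76, an inhibitor of TET dioxygenases by the series title, or DMSO. K562, an erythroleukaemia line, was present as K18, the TET2-/- clone, in DMSO, and as K01, the TET2+/+ clone, under TETi76 (12.5 µM) with ascorbate (100 µM), TETi76 alone, ascorbate alone or DMSO. Treatment lasted 24 h in every group, and the series title speaks of synthetic lethality. Each TET2 genotype was 1 clone, so genotype and clone cannot be told apart. The labels number the replicates without saying whether they were separate cultures, so the p-values rest on differences between libraries that could be technical only.

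NF-kB is a family of dimeric transcription factors, among them p50, which is cut from the NFKB1 product, and p65, the product of RELA. In resting cells IkB proteins such as IkB-alpha, the product of NFKBIA, hold the dimers in the cytoplasm. Receptors for interleukin-1, tumour necrosis factor and microbial ligands activate a kinase complex that marks IkB for destruction, and the freed dimers switch on cytokines, chemokines and adhesion molecules together with their own inhibitors NFKBIA and TNFAIP3. Monocytic cells are a main source of IL1B and CXCL8.

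The bases upstream of 4 members with kappaB motifs are shown. Of these, ICAM1, CXCL8 and TNFAIP3 passed a test in at least 1 line and NFKBIA passed none. IL1B passed in SIGM5 too, held no such motif in the window and is not shown. They are the 250 bases before the RefSeq start in GRCh38.p14, read 5′ to 3′ on the gene's strand, at chr19:10270870-10271119 (plus strand), chr4:73740319-73740568 (plus), chr6:137867009-137867258 (plus) and chr14:35404750-35404999 (minus). Capitals mark matches on either strand to 2 forms of the kappaB motif, GGGNNNNNCC and TGGAANNTCC, and matches may overlap.
ICAM1: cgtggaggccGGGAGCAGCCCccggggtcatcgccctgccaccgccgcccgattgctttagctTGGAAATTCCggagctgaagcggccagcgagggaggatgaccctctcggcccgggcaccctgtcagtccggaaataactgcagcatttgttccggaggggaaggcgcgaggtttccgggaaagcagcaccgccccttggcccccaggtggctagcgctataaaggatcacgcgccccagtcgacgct
CXCL8: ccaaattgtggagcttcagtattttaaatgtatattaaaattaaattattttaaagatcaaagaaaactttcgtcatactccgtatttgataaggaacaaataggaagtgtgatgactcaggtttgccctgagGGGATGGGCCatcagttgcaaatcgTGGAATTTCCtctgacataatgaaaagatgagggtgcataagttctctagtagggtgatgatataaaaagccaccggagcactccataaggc
TNFAIP3: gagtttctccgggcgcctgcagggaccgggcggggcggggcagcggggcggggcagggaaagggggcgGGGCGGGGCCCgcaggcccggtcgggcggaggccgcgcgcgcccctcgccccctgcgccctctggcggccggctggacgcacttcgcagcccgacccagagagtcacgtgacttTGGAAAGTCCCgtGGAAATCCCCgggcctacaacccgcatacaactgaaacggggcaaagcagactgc
NFKBIA: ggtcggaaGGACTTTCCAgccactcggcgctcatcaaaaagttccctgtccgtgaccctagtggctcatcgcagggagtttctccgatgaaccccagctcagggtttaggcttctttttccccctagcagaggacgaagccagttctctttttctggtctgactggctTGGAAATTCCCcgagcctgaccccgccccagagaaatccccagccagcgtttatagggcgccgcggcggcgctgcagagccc

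Counted from the start, ICAM1 held TGGAAATTCC at positions -187 to -178, CXCL8 held TGGAATTTCC at -92 to -83 and TNFAIP3 held TGGAAAGTCC at -68 to -59. NFKBIA held TGGAAATTCC at -82 to -73 and, on the opposite strand, TGGAAAGTCC at -242 to -233. TGGAANNTCC matched in 5 of the 10 members, NFKB1 being the fifth, and in 0.945% of 35116 promoter windows of that length. GGGNNNNNCC matched in 8 of the 10, against 54.4% of all windows. IL1B, which was called in SIGM5, and CCL3, which was not called, held neither form in the window. The AP-1 motif TGANTCA matched in CXCL8 and IL1RN (6.57% of all windows). These matches describe letters and were not tested against the expression values. The members were picked as inflammatory and NF-kB feedback genes, so their motif shares beside those of all windows are descriptions, not tests.

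SIGM5 totals were 23639198 and 22897513 counts in TETi76 and 18893636 and 21569319 in DMSO. The K562 table gives FPKM, in which fragments are divided by transcript length and by library size, and no totals; steps between low values put the depth of the K562 libraries at 0.62 to 1.181 times that of K18 replicate 1, lowest in TETi76 with ascorbate replicate 1. Each line showed markers of its own lineage, together with some markers of other lineages. SIGM5 had all 12 myelomonocytic markers above 1 CPM (counts scaled by library size). Their sums were 19430 and 20270 CPM in TETi76 and 22720 and 22970 CPM in DMSO, mostly from LYZ and MPO. Of the 10 erythroid markers 9 were under 1 CPM in every SIGM5 library, with HBG1, HBG2, HBE1 and HBZ at 0. The other, EPOR, was at 6.43 to 8.15 CPM. The 10 erythroid markers summed to 4442 to 10110 FPKM in K562, where the myelomonocytic sum was 75.9 to 108 FPKM. In K562 the 8 stromal, endothelial or epithelial markers summed to 273.5 to 966.7 FPKM, mostly from KRT8 and KRT18. The 7 lymphoid markers there summed to 12.3 to 41.0 FPKM. In SIGM5 the sums were 25.8 to 32.5 CPM for the stromal, endothelial or epithelial list and 25.4 to 28.7 CPM for the lymphoid list.

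In SIGM5, TETi76 raised the transcripts of IL1B, CXCL8, ICAM1 and TNFAIP3, and 0 members fell. Of the 10 members 8 had enough counts to be tested, and these 4 passed at an adjusted p under 0.05 (edgeR quasi-likelihood test, two-sided, Benjamini-Hochberg over 11340 genes). Of all genes tested 4.13% were called, 2.58% higher and 1.54% lower. The median log2 change of the 8 members was 0.63, against 0.001 over all genes tested. The members were chosen with earlier results of these data known, so the count and median of the members are descriptions. In RNA from whole cultures, a change in the share of cells that express a gene and a change per cell cannot be told apart.

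IL1B, which encodes the fever-inducing cytokine interleukin-1 beta, had 747 and 900 counts in TETi76 and 195 and 263 in DMSO. Both TETi76 libraries lay above both DMSO libraries. How many of all genes separate in this way was not counted, here or in the comparisons below, so non-overlap is only described. Its mean was 35.2 ± 5.64 CPM in TETi76 and 11.4 ± 1.27 CPM in DMSO (SD, n = 2 each), a log2 change of 1.63 (SE 0.15, adjusted p = 4.9e-07 by edgeR). CXCL8, the neutrophil chemoattractant interleukin-8, had 5438 and 4395 counts in TETi76 and 984 and 1800 in DMSO. It had the most counts of the chemokines, and its DMSO libraries lay far apart, at 52.8 and 83.8 CPM, yet under 227 and 191 CPM in TETi76. Its log2 change was 1.61 (SE 0.22, adjusted p = 0.0112 by edgeR).

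ICAM1, the adhesion molecule that leukocyte integrins bind, had 129 and 150 counts in TETi76 and 27 and 31 in DMSO. It was the member with the largest log2 change, 2.04 (SE 0.26, adjusted p = 3.03e-05 by edgeR), from few reads, with means of 5.96 ± 0.808 CPM in TETi76 and 1.45 ± 0.00308 CPM in DMSO (SD, n = 2 each). TNFAIP3, the ubiquitin-editing enzyme A20 that shuts off NF-kB signalling, had 2807 and 2748 counts in TETi76 and 1548 and 1751 in DMSO. Scaled, the 4 libraries were 117 and 120 CPM in TETi76 and 83.0 and 81.5 CPM in DMSO, with no overlap. The log2 change was 0.53 (SE 0.11, adjusted p = 0.00506 by edgeR), and it failed the threshold without TETi76 replicate 1 (0.186) or without TETi76 replicate 2 (0.146).

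The 4 other members tested in SIGM5 did not pass. IL1RN, the secreted antagonist of the interleukin-1 receptor, had 734 and 841 counts in TETi76 and 479 and 537 in DMSO, without overlap (log2 0.41, 95% interval 0.14 to 0.68, adjusted p = 0.0863 by edgeR); with a crossed replicate block, which the labels do not give and which was chosen after the data were seen, its adjusted p was 0.00727. CCL3, a monocyte chemokine, had 18 and 15 counts in TETi76 and 6 and 11 in DMSO (log2 0.73, 95% interval -0.43 to 1.89), and reads of its near-identical copies, such as CCL3L1, may be split from it or added to it. NFKB1 had 2520 and 2377 counts in TETi76 and 1729 and 2102 in DMSO (log2 0.13, 95% interval -0.09 to 0.36). In CPM neither CCL3 nor NFKB1 overlapped between the groups. NFKBIA had 969 and 1097 counts in TETi76 and 740 and 1073 in DMSO; in CPM the groups overlapped, and the interval of its log2 change, -0.03, ran from -0.30 to 0.25. CXCL2, a chemokine related to CXCL8, had 0 and 3 counts in TETi76 and 1 and 4 in DMSO, too few to test.

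**Figure D1:**
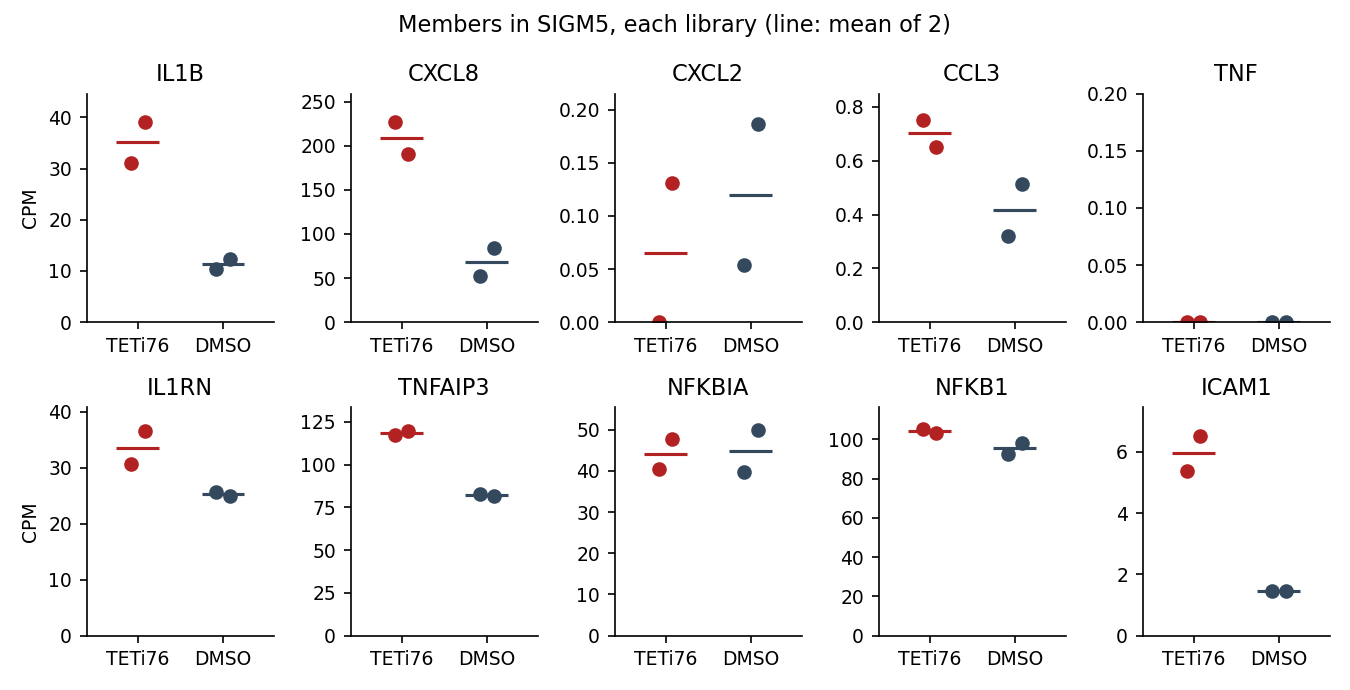
Library-scaled counts (CPM) of the 10 members in SIGM5, 1 point per library and a line at the mean of 2, with TETi76 left of DMSO. IL1B, CXCL8, TNFAIP3 and ICAM1 lie wholly higher in TETi76, and so do CCL3, NFKB1 and IL1RN, which were not called. NFKBIA and CXCL2 overlap, and TNF is at 0 in every library.

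TNF, the founding cytokine of the tumour necrosis factor family, was listed at 0 in all 4 SIGM5 libraries, but its place on chromosome 6 was poorly counted in that table. Among the 50 protein-coding genes nearest to TNF, 25 averaged at least 10 FPKM in K562. Of these 25, 16 averaged under 20 counts in SIGM5 (64%), against 296 of 5567 such genes across the genome (5.32%). DDX39B, an RNA helicase, had 93.3 to 132 FPKM in K562 and 0 counts in every SIGM5 library, and the chloride channel gene CLIC1 had 934 to 1577 FPKM in K562 and 0 to 3 counts in SIGM5. The same share around the other 9 members was 0% to 6.25%. The 0 counts of TNF in SIGM5 were therefore not read as a level. Of the further pathway genes listed below, IER3, LTA and LTB were among the same 50 neighbours. IER3 had 8 to 30 counts in SIGM5 and 9.86 to 103 FPKM in K562. LTA and LTB had 0 counts in SIGM5 and 0 to 1.04 FPKM in K562. The SIGM5 counts of these genes carry the same limit.

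**Figure D2:**
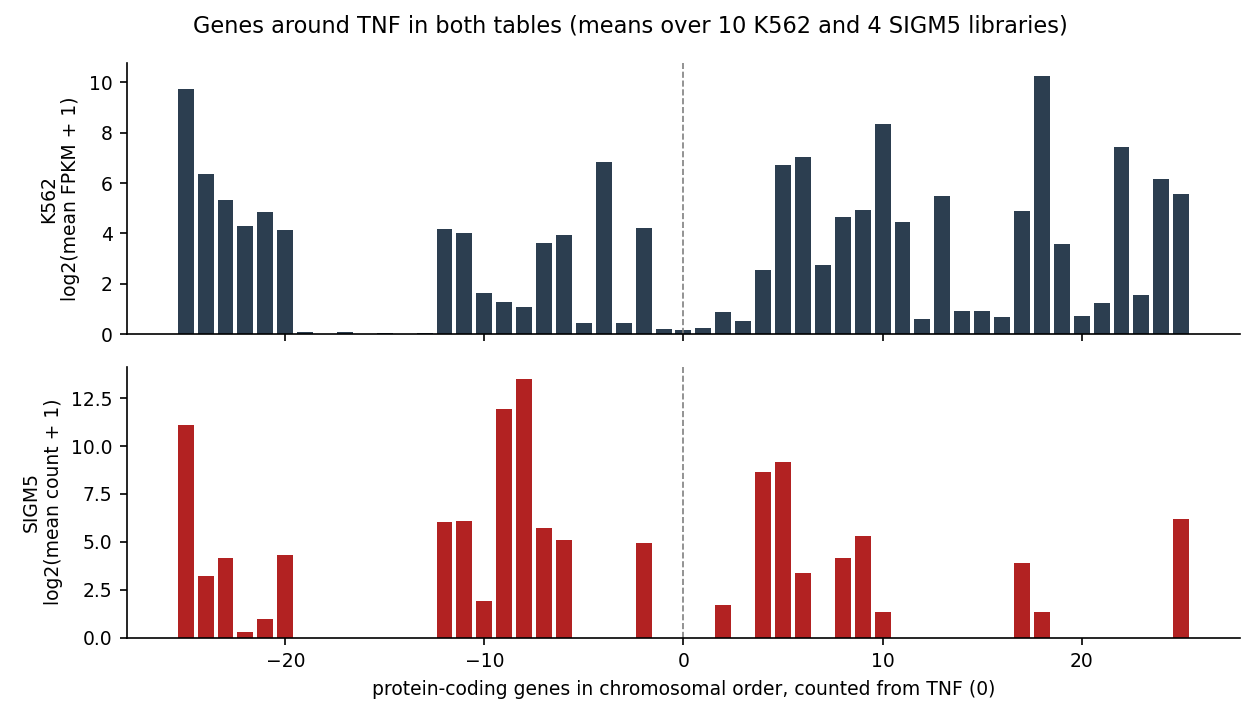
Mean level of the genes around TNF, in chromosomal order, as log2(FPKM + 1) over the 10 K562 libraries (top) and log2(count + 1) over the 4 SIGM5 libraries (bottom), with TNF at the dashed line. Of the 25 neighbours at 10 FPKM or more in K562, 16 averaged under 20 counts in SIGM5.

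In K01 cells TETi76 was followed by a higher ICAM1 level and a lower TNFAIP3 level, and neither of the chemokines tested, CXCL8 and CXCL2, passed; IL1B, TNF, CCL3 and IL1RN were too low to test. Of the 10 members 6 reached 1 FPKM in 2 libraries and were tested (limma on log2(FPKM + 1), two-sided, Benjamini-Hochberg over 12537 genes), and 2 were called. Among all genes tested 23.3% were called, 9.6% higher and 13.7% lower. The median log2 change of the 6 members was -0.14, against -0.01 over all genes.

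ICAM1 stood at 18.9 and 18.9 FPKM in TETi76 and 13.4 and 12.8 FPKM in DMSO, with no overlap. Its log2 change was 0.50 (SE 0.13, adjusted p = 0.0229 by limma), and its means were 18.9 ± 0.0159 FPKM in TETi76 and 13.1 ± 0.421 FPKM in DMSO (SD, n = 2 each). TNFAIP3 stood at 2.94 and 2.78 FPKM in TETi76 and 4.97 and 4.65 FPKM in DMSO, again without overlap. It fell by 0.59 on the log2 scale (SE 0.15, adjusted p = 0.0205 by limma), the direction opposite to SIGM5. Both calls were lost on leaving out any 1 of the 4 libraries, with adjusted p from 0.0772 to 0.109 for ICAM1 and from 0.0638 to 0.11 for TNFAIP3.

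Low reads limited the chemokines. Because the FPKM of a gene step by whole reads, the smallest whole read numbers that give a member's 10 values could be recovered for 7 members, all but CCL3, TNFAIP3 and NFKB1. CXCL8 had 15 and 20 such reads in TETi76 and 12 and 4 in DMSO, at 1.32 and 1.70 FPKM in TETi76 and 0.829 and 0.363 FPKM in DMSO. The groups did not overlap, and the change was not called (log2 0.66, 95% interval -0.01 to 1.34, adjusted p = 0.147 by limma). Neither K01 DMSO library of CXCL8 reached 1 FPKM, and a pseudocount of 0.1 FPKM in place of 1 gave a log2 change of 1.28 (adjusted p = 0.159 by limma). CXCL2 had 7 and 22 reads in TETi76 and 15 and 18 in DMSO, and its groups overlapped. NFKBIA, at 8.61 and 10.2 FPKM in TETi76 and 12.2 and 8.90 FPKM in DMSO, overlapped too, as did NFKB1, at 4.69 and 6.53 FPKM in TETi76 and 6.05 and 7.45 FPKM in DMSO.

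ICAM1 had 436 and 452 recovered reads in TETi76 and 392 and 285 in DMSO. An edgeR quasi-likelihood test on the recovered reads of 6916 genes, added after the data were seen, gave ICAM1 a log2 change of 0.51 (SE 0.14, adjusted p = 0.00662). It gave CXCL8 a log2 change of 1.27 (SE 0.84, adjusted p = 0.322), above the 0.66 by limma, and with ascorbate 1.08 (SE 0.82, adjusted p = 0.361), above 0.69; neither was called. The test called 21.5% of those genes and could not include TNFAIP3 or NFKB1, whose reads were not recovered. The untested members were at or near 0 in K562. CCL3 was listed at 0 in all 10 libraries, IL1RN had at most 2 recovered reads, and IL1B had 5 reads in K01 DMSO replicate 2, 2 in K18 replicate 2 and 0 elsewhere.

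With ascorbate present in both arms, TETi76 again went with more ICAM1 in K01, and the 5 other members tested were not called. ICAM1 had 21.1 and 17.5 FPKM in TETi76 with ascorbate and 14.5 and 11.3 FPKM in ascorbate, without overlap (log2 0.55, SE 0.13, adjusted p = 0.0119 by limma). It was the 1 call among the 6 members, where 30.7% of all genes were called, 12.8% higher and 17.8% lower. The call was lost without ascorbate replicate 2 (adjusted p = 0.0776) or without TETi76 with ascorbate replicate 1 (0.0742), the shallowest library. TNFAIP3 had 3.61 and 3.29 FPKM in TETi76 with ascorbate and 3.09 and 3.56 FPKM in ascorbate, which overlapped (log2 0.04, 95% interval -0.29 to 0.38). CXCL8 had 2.63 and 1.80 FPKM in TETi76 with ascorbate and 0.537 and 1.53 FPKM in ascorbate, without overlap or a call (log2 0.69, adjusted p = 0.114 by limma); without 1 library its log2 change ran from 0.33 without ascorbate replicate 1 to 1.05 without ascorbate replicate 2. The chemokine CXCL2, the inhibitor NFKBIA and the p50 precursor NFKB1 lay lower in TETi76 with ascorbate, each without overlap, and did not pass. The share of all genes without overlap was not counted, so this separation is not read as a fall. CXCL2 had 1.58 and 0.406 FPKM in TETi76 with ascorbate and 2.15 and 2.16 FPKM in ascorbate (log2 -0.73, adjusted p = 0.175 by limma). NFKBIA had 9.85 and 10.0 FPKM in TETi76 with ascorbate and 12.6 and 11.7 FPKM in ascorbate (log2 -0.27, adjusted p = 0.325 by limma). NFKB1 had 6.82 and 5.62 FPKM in TETi76 with ascorbate and 8.14 and 7.56 FPKM in ascorbate (log2 -0.30, adjusted p = 0.34 by limma). TNF reached its highest value of the K562 table here, 0.134 and 0.828 FPKM in TETi76 with ascorbate, from 1 and 9 recovered reads, against 0 in both ascorbate libraries.

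Ascorbate itself moved 0 members past the threshold in limma. Against DMSO, TNFAIP3 was the 1 of 6 members at an unadjusted p under 0.05 by limma, as were 1499 of all 12537 genes tested. It had 3.09 and 3.56 FPKM in ascorbate and 4.97 and 4.65 FPKM in DMSO (log2 -0.43, SE 0.15, adjusted p = 0.29 by limma). Of all genes 0.479% were called in this comparison. TETi76 with ascorbate against TETi76 gave 0 called members, with 0.734% of all genes called. It had 0 members at an unadjusted p under 0.05 by limma, where 1831 of the 12537 genes tested were. The interaction of the agents likewise called 0 members (0.63% of all genes). TNFAIP3 had an unadjusted p of 0.0144 there (log2 0.63, SE 0.21, adjusted p = 0.236 by limma), and 1708 of the 12537 genes tested were under 0.05 unadjusted. These comparisons share libraries with those above.

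**Figure D3:**
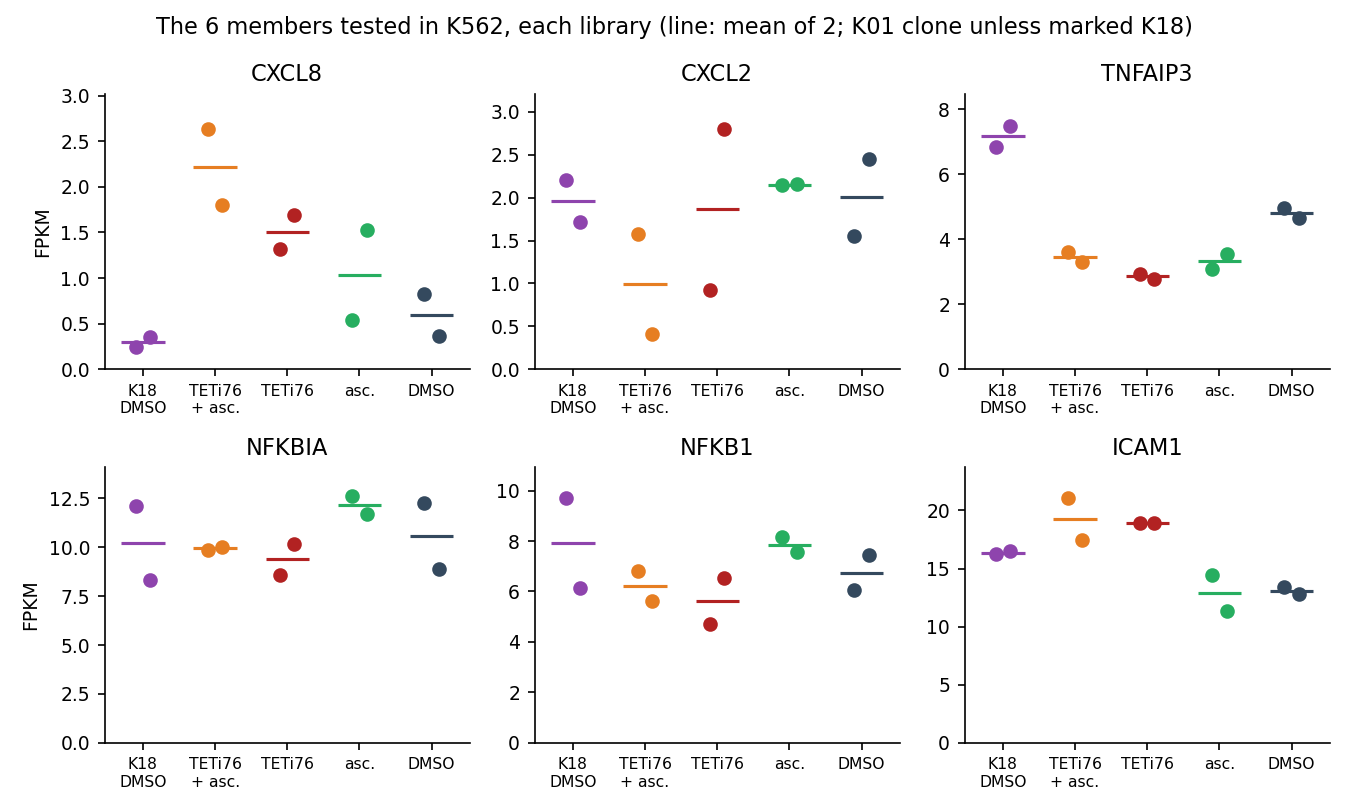
FPKM of the 6 members tested in K562, 1 point per library and a line at the mean of 2, for K18 in DMSO and for K01 under TETi76 with ascorbate, TETi76, ascorbate and DMSO. ICAM1 is higher in both groups with TETi76 than in either K01 group without it, and TNFAIP3 is highest in K18 and lowest in TETi76.

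The TET2-/- clone K18 was compared with K01 without drug, both in DMSO. Limma called 0 of the 6 members, while 15.1% of all genes were called, 6.84% higher and 8.21% lower. An unadjusted p under 0.05 by limma was reached by 2 of the 6 members and by 3682 of the 12537 genes tested. TNFAIP3 had 6.86 and 7.48 FPKM in K18 and 4.97 and 4.65 FPKM in K01, with no overlap (log2 0.49, SE 0.15, adjusted p = 0.0571 by limma). ICAM1 had 16.3 and 16.5 FPKM in K18 and 13.4 and 12.8 FPKM in K01, also without overlap (log2 0.30, SE 0.13, adjusted p = 0.155 by limma). CXCL8 was low in both clones, at 0.245 and 0.357 FPKM in K18 and 0.829 and 0.363 FPKM in K01, from 3 and 5 reads in K18 and 12 and 4 in K01. NFKBIA, NFKB1 and CXCL2 overlapped between the clones.

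The TETi76 effects of SIGM5 and K01 differed for 2 of the 5 members tested in both lines, and 12% of 9742 genes were called in that comparison. The effect on TNFAIP3 was higher in SIGM5 by 1.12 on the log2 scale (SE 0.18, adjusted p = 0.000366), with a rise in SIGM5 and a fall in K01. The effect on ICAM1 was higher in SIGM5 by 1.54 (SE 0.29, adjusted p = 0.000518), the sign being positive in both lines. The 2 tables differ in unit, and the pseudocount of 1 FPKM shrinks changes of low genes in K562. For CXCL8 the difference of 0.95 (SE 0.37, adjusted p = 0.115) did not pass, except without SIGM5 DMSO replicate 2 (adjusted p = 0.0161), and it was 0.33 (SE 0.64, adjusted p = 0.794) with a pseudocount of 0.1 FPKM. The differences for NFKB1 and NFKBIA were 0.37 (SE 0.24) and 0.12 (SE 0.23).

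**Figure D4:**
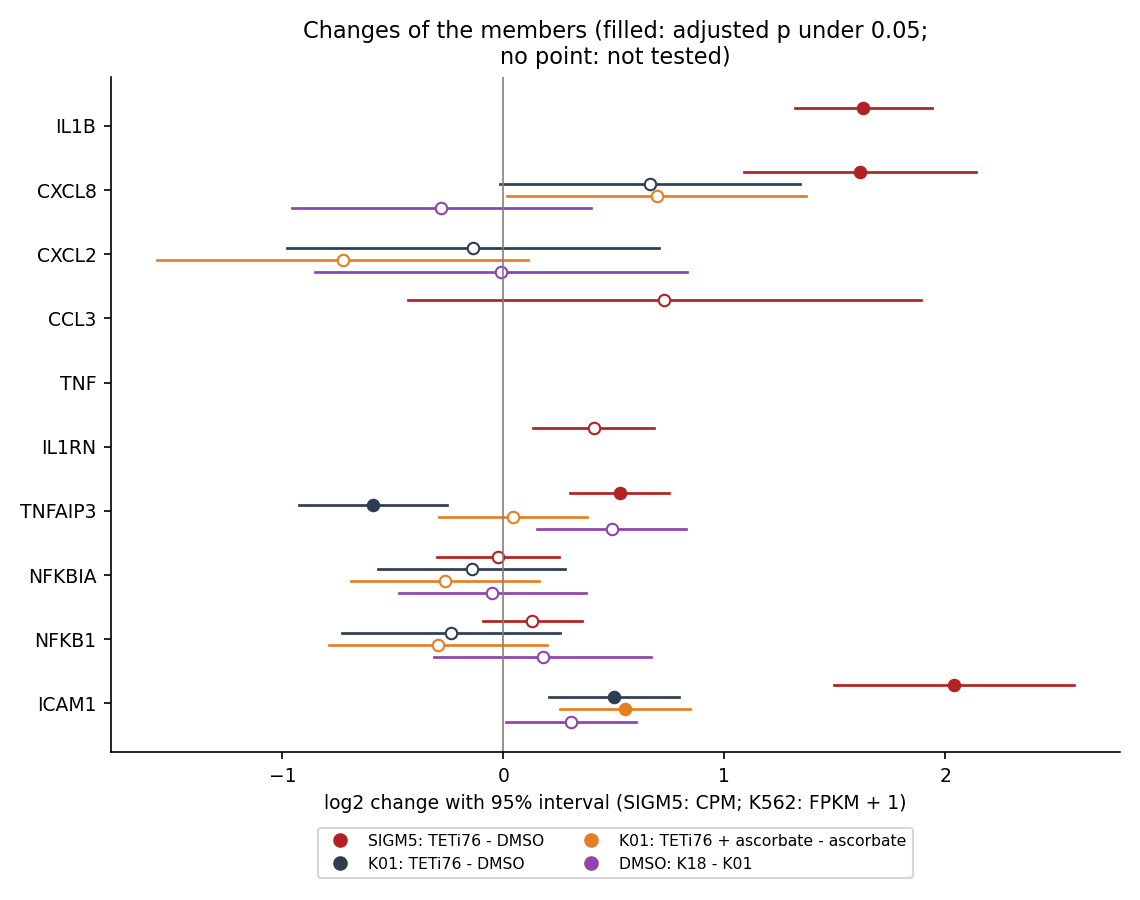
Log2 change with its 95% interval for each member tested, for TETi76 against DMSO in SIGM5 and in K01, TETi76 with ascorbate against ascorbate in K01, and K18 against K01 in DMSO; filled points have an adjusted p under 0.05. TNFAIP3 lies at 0.53 in SIGM5 and -0.59 in K01, and ICAM1 is positive in all 4 comparisons.

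The wider pathway was read through 141 further genes in 6 lists, by role. The lists were chosen with earlier results of these data known. Here and in the comparisons below, their shares and medians beside those of all genes are therefore descriptions, not tests. In SIGM5, 16 of the 107 tested were higher and 1 lower under TETi76 (15.9% called, against 4.13% of all genes), with a median log2 change of 0.18, against 0.001 over all genes. By list, the share called ran from 6.67% of kinases and Rel factors to 28.6% of target genes, and the median was -0.23 for cytokines and chemokines and -0.03 for IL-1 processing. Among receptors and adaptors 4 of 21 rose, CD14 (log2 0.81), CCR1 (0.71) and TLR2 (0.68), which sense chemokines or bacterial products, and LY96, a partner of TLR4. LY96 had 41 and 37 counts in TETi76 and 8 and 6 in DMSO. It passed the filter on low counts only through its TETi76 libraries, so its call is not read as support. The counts and shares given for the lists in SIGM5 still include LY96. Of the cytokines and chemokines 1 of 8 rose, the monocyte chemokine CCL2, at 19.9 ± 1.82 CPM in TETi76 and 7.19 ± 1.75 CPM in DMSO. The kinase IKBKE rose by 0.39 as the 1 of 15 kinases and Rel factors. Feedback inhibitors had 2 of 25 higher, the mRNA-decay factor ZFP36L1 (1.17) and TRAF1 (0.92), and IL-1 processing had NINJ1, which ruptures membranes in dying cells, as 1 of 10. Among target genes 7 of 28 rose and 1 fell: the gelatinase MMP9 had 34.3 ± 3.99 CPM in TETi76 and 13.3 ± 1.01 CPM in DMSO (SD, n = 2 each), TNFAIP2 changed by log2 1.11, and the stress gene GADD45B fell by 0.89. Myelomonocytic markers moved in both directions alongside, 3 of 12 higher and 4 lower, and their part in these changes was not tested.

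In K01, 31 of 94 tested pathway genes were higher and 8 lower (41.5% called, against 23.3% of all genes; median log2 change 0.30, against -0.01). The share called was 69.2% of target genes, whereas receptors and adaptors, at 23.5%, and kinases and Rel factors, at 14.3%, were at or below that of all genes. Receptors and adaptors had 4 of 17 higher, among them TNFRSF1A, the main TNF receptor, at 30.3 ± 1.02 FPKM in TETi76 and 19.5 ± 2.55 FPKM in DMSO. Kinases and Rel factors had 2 of 14 higher, MAP3K14, which drives the non-canonical pathway (log2 1.35, SE 0.19), and RELA (log2 0.52, SE 0.09). The feedback inhibitors other than the members had 8 of 22 higher and 1 lower. SOCS1, which blocks cytokine receptor kinases, changed by log2 2.47 (SE 0.30), the RNase ZC3H12A by 0.73 and the deubiquitinase OTUD7B by 0.84, whereas TRIB3 fell by 1.77. CSF1, the macrophage growth factor, changed by log2 1.24 and IL23A fell by 1.39. CCL2 had 2.42 and 3.51 FPKM in TETi76 and was listed at 0 in both DMSO libraries. It passed the filter only through TETi76, so its call is not read as support, although the counts and shares given for K01 include it. With ascorbate the groups of CCL2 overlapped (log2 0.39, adjusted p = 0.383 by limma). Target genes had 12 of 26 higher and 6 lower, with IER3 at 52.3 ± 0.654 FPKM in TETi76 and 9.88 ± 0.0309 FPKM in DMSO. GADD45B had 15.8 ± 1.96 FPKM in TETi76 and 1.65 ± 0.46 FPKM in DMSO in K01, and the difference of its effects, SIGM5 minus K01, was -3.56 (SE 0.32, adjusted p = 3.4e-07). Alongside in K01, erythroid markers fell in 6 of 10, 1 of 7 myelomonocytic markers rose (SPI1, log2 1.49, adjusted p = 0.000249 by limma) and 2 of 4 stromal, endothelial or epithelial markers rose (KRT8, log2 1.45, and KRT18, log2 0.94); their part was not tested.

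**Figure D5:**
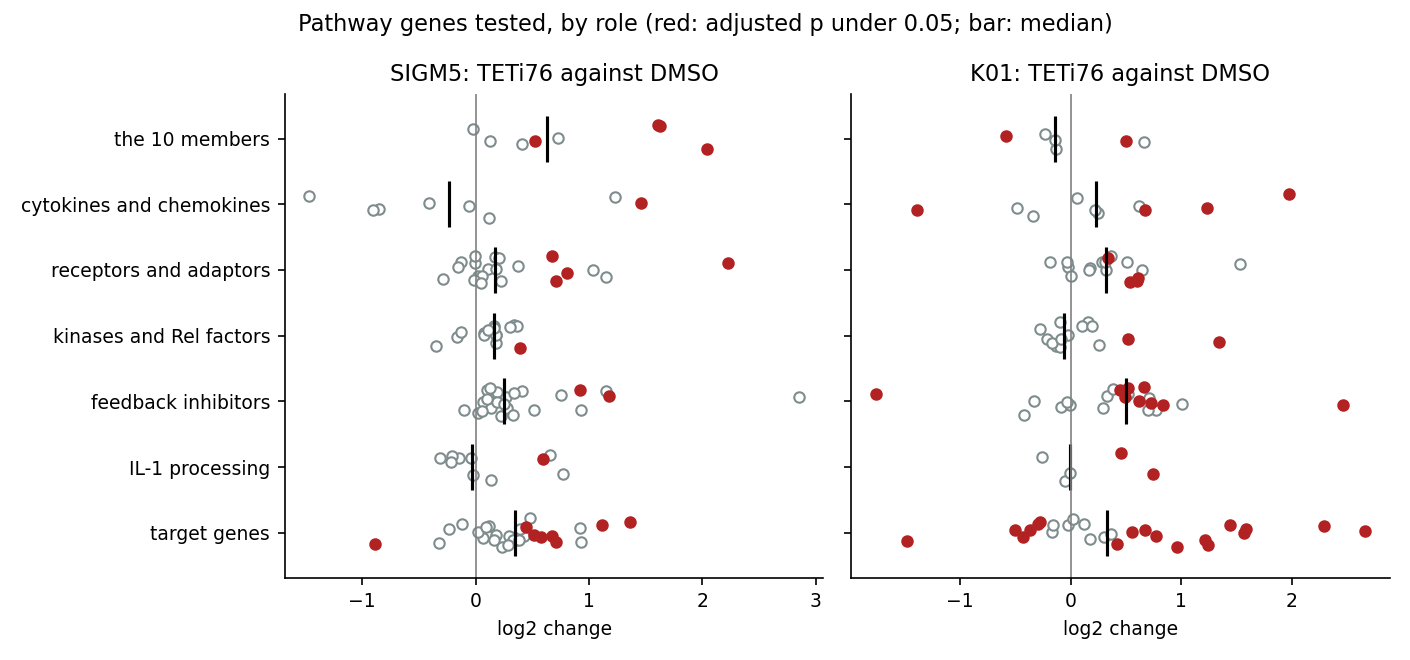
Log2 change of each gene tested under TETi76 against DMSO in SIGM5 (left) and K01 (right), for the 10 members and 6 lists by role; red points have an adjusted p under 0.05 and the bar is the median. In SIGM5 17 of 107 list genes are called, and in K01 39 of 94. These include LY96 in SIGM5 and CCL2 in K01, which passed the filter only through TETi76.

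TETi76 with ascorbate against ascorbate in K01 had 36 of the 94 list genes higher and 10 lower (48.9% called, against 30.7% of all genes), led by GADD45B (log2 3.84), CCRL2 (3.27) and IER3 (2.93). Markers moved here too, erythroid ones lower in 7 of 10, myelomonocytic ones higher in 3 of 7 and stromal, endothelial or epithelial ones higher in 2 of 4, and their part was not tested. K18 had 12 higher and 7 lower than K01 (20.2% called, against 15.1% of all genes), while erythroid markers were lower in 5 of 10, myelomonocytic markers higher in 2 of 7 (CD33 and SPI1) and stromal, endothelial or epithelial markers lower in 3 of 4; their part was not tested. The early activation antigen CD69 had 2.29 ± 0.77 FPKM in K18 and 21.5 ± 0.747 FPKM in K01. TNFRSF1A was lower in K18, at 7.97 ± 0.482 FPKM in K18 and 19.5 ± 2.55 FPKM in K01 (SD, n = 2 each). CD69 and TNFRSF1A were among the 7 lower genes. Among the 12 higher were CD82 (log2 1.08), IER3 (0.98), SIGIRR (0.95), TNFAIP2 (0.80) and SOCS3 (0.71). IL18R1, a receptor chain for interleukin-18, had 5.52 and 5.97 FPKM in K18 and 0.0953 and 0.0417 FPKM in K01. It passed the filter only through K18, so its call is not read as support, although the count and share given for K18 include it. Ascorbate alone called 1 of the 94 list genes (1.06%, against 0.479% of all genes), TRIB3, which was lower (log2 -0.88). TETi76 with ascorbate against TETi76 called 3 of the 94 (3.19%, against 0.734% of all genes). TNFRSF1A (log2 0.72) and ATF3 (0.63) were higher and ICAM5 (-0.565) was lower. The interaction called 2 of the 94 (2.13%, against 0.63% of all genes), TRIB3 (log2 1.03) and ATF3 (0.94).

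Over the 10 K562 libraries, on log2(FPKM + 1), the genes whose profiles were most like those of the members were PMPCB for TNFAIP3 (Pearson r = 0.979), PCYT1A for CXCL8 (0.973), TWF2 for CXCL2 (0.967), ZNF326 for ICAM1 (0.961), CIAO1 for NFKB1 (0.914) and LETM1 for NFKBIA (0.893). These are descriptions over 10 libraries of 5 groups, chosen as the highest of all genes averaging at least 5 FPKM. By length-scaled level, K01 in DMSO ranked ICAM1 (13.1 ± 0.421 FPKM) first, then NFKBIA (10.6 ± 2.37 FPKM), NFKB1 (6.75 ± 0.995 FPKM), TNFAIP3 (4.81 ± 0.228 FPKM), CXCL2 (2.01 ± 0.635 FPKM) and CXCL8 (0.596 ± 0.329 FPKM), with no overlap between the libraries of neighbours in this order. IL1B (0.263 ± 0.372 FPKM) and TNF (0.0463 ± 0.0655 FPKM) followed and overlapped, each at 0 in 1 of the 2 libraries, and CCL3 and IL1RN were listed at 0.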

How the data were processed

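Polyadenylated RNA of 14 libraries was analysed, grouped by their labels. Per the submitters' processing notes the authors used the hg19 genome, STAR, edgeR 3.24.3 and limma 3.38.3; which step made which table is not given in the sources used here. The SIGM5 table was deposited as raw counts per gene. The K562 table was deposited as FPKM, judged from its values, although its name says counts, so limma was used there in place of a count test. In K562, 26 entries with a number for a name and 2270 short RNAs were left out.

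Counts were tested with edgeR 4.0.16 (robust quasi-likelihood, TMM, filterByExpr), and log2(FPKM + 1) with limma 3.58.1, using its trend and robust options over all 10 K562 libraries, for genes with 1 FPKM in 2 libraries. The pseudocount understates changes of low genes. The difference between lines used Satterthwaite degrees of freedom. Tests were two-sided, the threshold an adjusted p of 0.05. On simulated data, edgeR in the SIGM5 comparison recovered 96% of genes changed by log2 1 and limma in K01 100%. Only genes well above the filters were changed there, and the noise was a fixed small amount, not taken from these libraries. The shares are therefore a check of the steps. They do not give the power for the members, least of all for low ones such as CXCL8 and CXCL2 in K562.

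The members and lists were chosen with earlier results of these data known. The called list genes named were drawn from up to 4 per list and comparison, the largest in change among those without overlap. Not all of these are named, so an unnamed gene may have been called. Alternatives were DESeq2 1.42.0, other scalings, filters and pseudocounts, replicates left out or as a block, and, added after the data were seen, a crossed block and a count test on reads recovered from the FPKM. Whole reads, within 0.02 of a read, were recovered for 51.1% of 12773 genes, and for 3 of 300 genes after random scaling. In the count test, over genes above 0 in at least 6 libraries, library totals differed from the relative depths by -1.51% to 1.17%.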

Additional observations from a re-analysis of the deposited data

Results flagged for a closer look

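TNFAIP3 and ICAM1 had a TETi76 effect that differed between SIGM5 and K01 by a test of the difference itself. For TNFAIP3 the effect in SIGM5 minus that in K01 was 1.115 on the log2 scale (SE 0.18, adjusted p = 0.000366), with 118 ± 1.70 CPM in TETi76 and 82.3 ± 1.04 CPM in DMSO in SIGM5, and 2.86 ± 0.111 FPKM in TETi76 and 4.81 ± 0.228 FPKM in DMSO in K01 (SD, n = 2 each). For ICAM1 it was 1.537 (SE 0.29, adjusted p = 0.000518), with 5.96 ± 0.808 CPM in TETi76 and 1.45 ± 0.00308 CPM in DMSO in SIGM5, and 18.9 ± 0.0159 FPKM in TETi76 and 13.1 ± 0.421 FPKM in DMSO in K01. Leaving out 1 library at a time, the adjusted p ran from 0.000138 to 0.00939 for TNFAIP3 and from 0.000217 to 0.0202 for ICAM1. Line, table and unit cannot be told apart in these differences.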

How the results depend on the processing

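The number of members called under TETi76 in SIGM5, 4, ran from 3 to 4 without 1 library, and that of the difference between lines, 2, from 2 to 3. In K01 the count of 2 under TETi76 was 0 without any 1 of its 4 libraries (range 0 to 0), 1 with only the groups compared (TNFAIP3 at adjusted p = 0.0506 by limma) and 1 in the edgeR test on recovered reads, which covers 4 of the 6 members. The 1 call with ascorbate was 0 with only the groups compared (ICAM1 at adjusted p = 0.0547 by limma) and 0 to 1 without 1 library. A single library left in a group was assumed to vary like the other groups; the cause of these losses was not tested beyond there being fewer samples.

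Over all genes, the count in SIGM5 was 468 and ran from 110 without TETi76 replicate 1 to 1291 with a crossed replicate block. In K01 under TETi76 it was 2921, and 1486 of 6916 genes in the test on recovered reads; among 5979 genes in both tests 1169 were called by both, of 1300 called by limma. Elsewhere the counts were 3844 for TETi76 with ascorbate (lowest 1841), 1887 for K18 (720 to 2101), 60 for ascorbate (0 to 62), 92 for ascorbate added to TETi76 (2 to 124), 79 for the interaction (0 to 80) and 1172 between lines (522 to 1483); of these, 1841, 62, 124 and 80 come from the test on recovered reads, with fewer genes tested (26.6%, 0.896%, 1.79% and 1.16% of 6916). Quantile normalization changed the split in K01 to 1428 higher and 1383 lower, against 1204 and 1717, with ascorbate to 1783 and 1845, against 1611 and 2233, and in K18 to 833 and 828, against 858 and 1029.

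Replicate numbers did not pair the K562 libraries (r of replicate differences -0.022 to 0.052) and gave r = -0.235 in SIGM5. With the replicate block the members called were 4 in SIGM5, 2 in K01 under TETi76, 1 with ascorbate, 2 between lines and 0 elsewhere. The crossed replicate block called 5 members in SIGM5, IL1RN being added (adjusted p = 0.00727 by edgeR).

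Some uncalled log2 changes turned sign. Quantile normalization gave TNFAIP3 -0.025 with ascorbate (main 0.04) and CXCL8 -0.01 in the interaction (main 0.03), where a pseudocount of 0.1 FPKM gave -0.12 and recovered reads -0.19. Without 1 library, values ran as follows. NFKBIA ran from -0.18 to 0.14 in SIGM5, -0.355 to 0.066 in K01, -0.011 to 0.409 for ascorbate, -0.031 to 0.187 for ascorbate added to TETi76, -0.331 to 0.089 for the interaction, -0.30 to 0.20 in K18 and -0.091 to 0.33 between lines. CXCL2 ran from -0.63 to 0.36 in K01, -0.13 to 0.30 for ascorbate and -0.23 to 0.21 in K18. ICAM1 ran from -0.19 to 0.14 for ascorbate, -0.11 to 0.15 for ascorbate added to TETi76 and -0.12 to 0.21 for the interaction. NFKB1 ran from -0.12 to 0.47 in K18, -0.066 to 0.338 for ascorbate added to TETi76 and -0.26 to 0.14 for the interaction. CXCL8 ran from -0.039 to 0.681 for ascorbate and -0.33 to 0.39 for the interaction, and TNFAIP3 from -0.035 to 0.123 with ascorbate. Few reads limit the precision of CXCL8 and CXCL2 in K562 and of CCL3 and CXCL2 in SIGM5.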
